A study of Saccharomyces cerevisiae with 44 samples.

Results

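The growth window of the yeast metabolic cycle, a set of time points around the peaks of cytosolic and mitochondrial ribosomal genes, was compared between a fast and a slow continuous culture. The window holds 10 of the 44 libraries of the study, which are time points 8, 9, 10, 18, 19 and 20 of the fast culture (6 of 20 libraries) and time points 1, 12, 13 and 24 of the slow culture (4 of 24 libraries). These time points were chosen by the levels of growth genes in these same data, so growth genes are described here without a test. All groups were Saccharomyces cerevisiae strain CEN.PK122, for which the labels give no engineered allele, in an aerated fermentor at pH 3.4 and 30 degrees on minimal medium with 1% glucose. Fresh medium entered at a dilution rate of 0.12 to 0.13 per hour in the fast culture and 0.045 to 0.05 per hour in the slow culture. Sampling was every 13 min in the fast culture and every 36 min in the slow culture, over 2 cycles. As far as the labels tell, each condition was 1 culture, so the p-values below measure the spread between time points and not between cultures. RNA abundance was measured by stranded poly(A) RNA sequencing with added control RNAs, as RPKM, which are reads scaled to gene length and library size. Library depth recovered from the steps of the RPKM values was 7.6 to 12.9 M reads (M, mega) in the fast window and 8.29 to 13.1 M reads in the slow window, and the control RNAs took 0.717 to 1.37% and 0.679 to 1.22% of the total. The strain is known as a diploid, but mating genes that such cells normally keep low were expressed in both windows, with values given below.

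Yeast held at a low, constant supply of glucose can pass in synchrony through bursts of respiration and growth that alternate with longer resting phases. Genes for building ribosomes rise during the burst, genes for mitochondria and cell division follow, and genes for stress protection, storage and fat breakdown fill the resting phase. At the end of division the daughter cell dissolves the septum that joins it to its mother with chitinase and glucanases, whose genes are activated by transcription factors such as Swi5. A separate program, the general stress response, is driven by the factors Msn2 and Msn4 through the short element AGGGG and fades as growth speeds up.

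The values that chose the window show that it spans 2 stages. The median level of 98 ribosome biogenesis genes was 179 RPKM at fast time point 8 and 121 at fast 18, then fell to 68.7, 49.0, 55.3 and 36.7 RPKM at fast 9, 10, 19 and 20. In the slow culture it was 188 RPKM at time point 12 and 138 at 24, but 26.3 RPKM at time point 13 and 10.8 at time point 1, the lowest of the 24 slow libraries. Just outside the window, the same median was 57.6, 138 and 25.8 RPKM at fast 7, 17 and 11, and 60.7, 45.5, 12.2 and 13.2 RPKM at slow 11, 23, 14 and 2. Fast 17 therefore held more ribosome biogenesis RNA than fast 18 and stood outside, whereas slow 1 and 13 entered with the highest mitochondrial ribosomal protein medians of their culture, 308 and 294 RPKM. Time points fast 8 and 18 and slow 12 and 24 are called the burst below, and the other 6 window libraries the stage after it. The burst supplied 2 of 6 fast and 2 of 4 slow libraries.

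**Figure D1:**
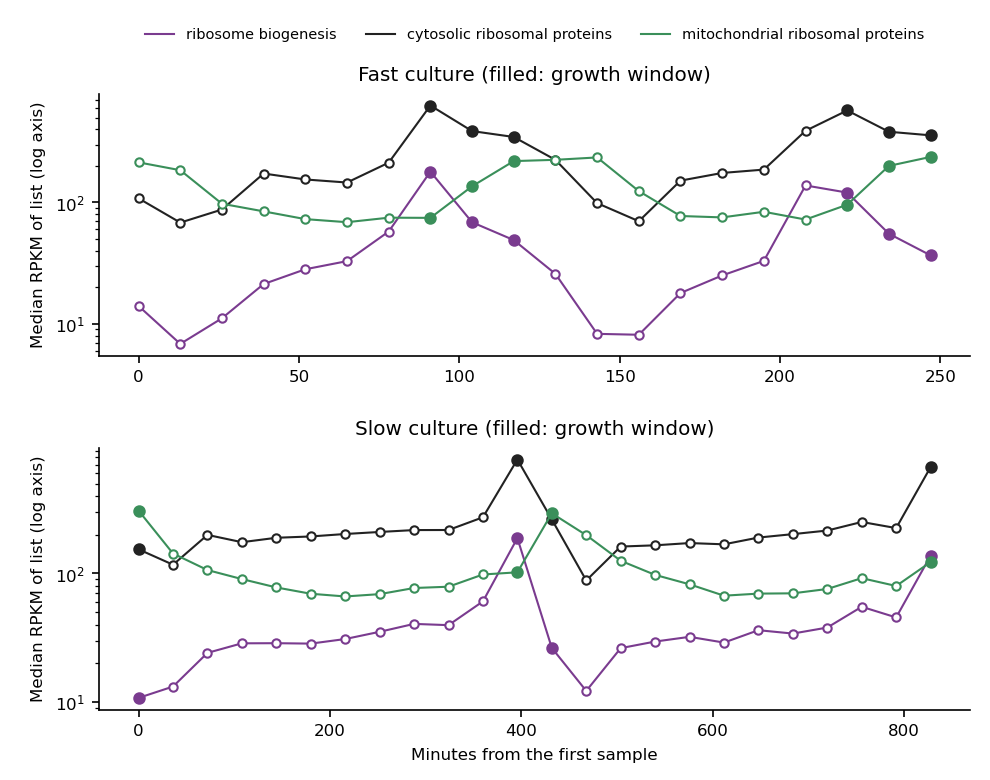
Median RPKM (log axis) of 3 growth gene lists against minutes from the first sample in the fast culture (top) and the slow culture (bottom), 1 point per library, with window libraries filled. In the fast culture the ribosome biogenesis median fell from 179 RPKM at 91 min (fast 8) to 25.8 RPKM at 130 min (fast 11, outside the window). In the slow culture it fell from 188 RPKM at 396 min (slow 12) to 26.3 RPKM at 432 min (slow 13), which is 1 sampling step. The highest value of the second fast cycle, 138 RPKM at fast 17, lies outside the window.

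Growth genes are described at the burst and after it, without a test, since their levels chose both the window and the burst libraries and so in part fix these differences. The median log2 difference, fast minus slow on the log2(RPKM + 1) scale used throughout, which understates the change of low genes, was -0.12 for ribosome biogenesis and -0.29 for 138 cytosolic ribosomal proteins at the burst, and 1.495 and 0.85 after it. NSR1, a nucleolar protein of ribosome assembly, was at 819 and 371 RPKM in the fast bursts and 669.7 and 345 RPKM in the slow bursts, and at 116, 80.4, 107 and 60.7 RPKM against 16.9 and 53.8 RPKM afterwards. RPL17B, a protein of the large ribosomal subunit, went from 641 and 622 RPKM to between 358 and 414 RPKM in the fast culture, and from 864 and 748 to 136 and 256 RPKM in the slow culture. MRPL10, a mitochondrial ribosomal protein, ran the other way, from 79.9 and 107 RPKM up to 264 RPKM in the fast culture and from 101 and 113 up to 408 RPKM in the slow culture. The reference gene ACT1, which encodes actin, had overlapping values, lowest 675, median 921 and highest 1024 RPKM in the fast window against 870.4, 661, 871 and 632 RPKM at slow 1, 12, 13 and 24. Its difference of 0.21 ± 0.19 (SE) did not pass the test (adjusted p = 0.772), and its sign turned when libraries were scaled to the control RNAs (-0.077).

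Of 5802 genes averaging 1 RPKM or more in the 10 libraries, 78 (1.34%) had higher and 75 (1.29%) had lower levels in the fast window, at an adjusted p under 0.05 by limma with Benjamini-Hochberg adjustment and at least 2-fold. Irrespective of any test, the 6 fast values all lay above the 4 slow values for 229 genes (3.95%) and all below them for 217 genes (3.74%). Among the 153 genes called, 146 had groups that did not overlap. The median difference over all genes was 0.04. Scaling each library to its control RNAs instead moved that median by -0.28 and changed the counts to 30 higher and 101 lower, so the split between higher and lower genes depends on the scaling. With the burst libraries alone, 67 genes were higher (1.15%) and 67 lower (1.15%), and with the libraries after the burst alone, 428 were higher (7.37%) and 230 lower (3.96%). The 428 include 82 of 98 ribosome biogenesis genes and 32 of 138 cytosolic ribosomal proteins. Growth gene levels chose the stages, so the counts by stage are in part fixed by that choice. In these bulk samples, fewer cells in a state and less RNA per cell cannot be told apart.

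**Figure D2:**
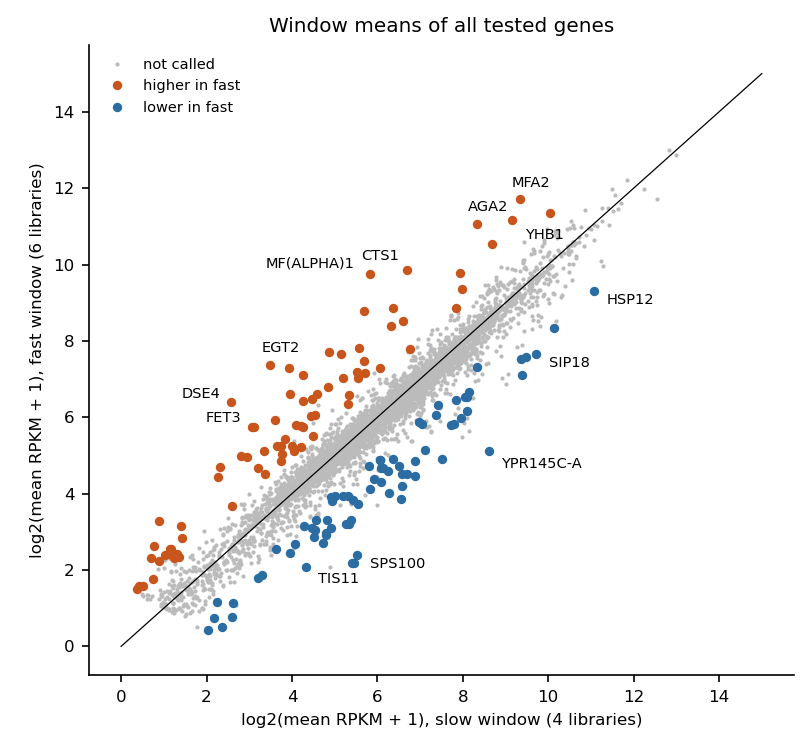
Mean level of each of 5802 genes in the fast window (vertical axis, 6 libraries) against the slow window (horizontal axis, 4 libraries), both as log2(mean RPKM + 1), with the 78 genes called higher and the 75 called lower in colour and the line of equality. Septum genes (EGT2, DSE4, CTS1) and mating genes (MF(ALPHA)1, AGA2, MFA2) lie well above the line, and YPR145C-A, SPS100 and TIS11 far below it.

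Genes that separate daughter from mother cells were higher in the fast window. Of 16 septum and daughter-specific genes, 13 were called higher, 14 had non-overlapping groups and none was called lower, with a median difference of 2.28. The promoters of EGT2, DSE4 and DSE1, the 3 members of the list with the largest differences, are shown because each holds the core of the Swi5 site at nearly the same distance from the start codon. They run from 250 bases before the start codon to 50 bases into the gene in the RefSeq R64 assembly, with the match to GCTGG in capitals.
EGT2 (chrXIV:23798-24097, plus strand): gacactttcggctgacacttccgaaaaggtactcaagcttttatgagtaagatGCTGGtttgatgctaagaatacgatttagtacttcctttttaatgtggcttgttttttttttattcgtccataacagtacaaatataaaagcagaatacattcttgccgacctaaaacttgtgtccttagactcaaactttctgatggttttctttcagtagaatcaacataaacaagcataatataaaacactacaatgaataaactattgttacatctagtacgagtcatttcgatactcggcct
DSE4 (chrXIV:759050-759349, minus strand): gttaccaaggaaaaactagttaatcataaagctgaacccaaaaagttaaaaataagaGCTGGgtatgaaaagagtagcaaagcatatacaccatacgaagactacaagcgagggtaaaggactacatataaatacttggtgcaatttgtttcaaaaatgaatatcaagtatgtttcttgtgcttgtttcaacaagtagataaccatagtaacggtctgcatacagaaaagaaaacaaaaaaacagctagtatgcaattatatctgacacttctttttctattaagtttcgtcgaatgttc
DSE1 (chrV:409014-409313, minus strand): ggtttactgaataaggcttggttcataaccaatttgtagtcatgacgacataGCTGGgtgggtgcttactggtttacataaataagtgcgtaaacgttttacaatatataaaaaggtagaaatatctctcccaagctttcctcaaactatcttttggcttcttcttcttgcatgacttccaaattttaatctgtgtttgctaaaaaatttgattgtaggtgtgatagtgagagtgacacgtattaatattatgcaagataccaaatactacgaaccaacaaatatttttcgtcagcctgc
The match begins 197, 193 and 198 bases before the start codon in EGT2, DSE4 and DSE1. Searched on both strands over 5566 promoters of this length, GCTGG was present in 22.7% of all promoters, in 23 of the 71 promoters read for genes called higher (32.4%) and in 6 of the 13 septum genes called (46.2%). It was found in 10 of the 72 promoters read for genes called lower (13.9%). CTS1, DSE2 and SCW11 had no match in this span. These shares are a description, and a match is not evidence of binding.

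EGT2, a cell wall protein needed for clean separation, had lowest 121, median 164 and highest 226 RPKM in the fast window and 6.77, 15.1, 8.29 and 10.9 RPKM at slow 1, 12, 13 and 24. Every fast library was above every slow library, and the difference of 3.90 ± 0.23 (SE) corresponds to 14.9-fold (adjusted p = 1.24e-05). DSE4, a glucanase of the septum, had lowest 56.8, median 79.5 and highest 134 RPKM against 2.78, 8.53, 3.04 and 5.55 RPKM. Its groups were also apart, by 3.88 ± 0.30 (SE) or 14.7-fold (adjusted p = 5.08e-05), with the highest value at fast 8. CTS1, the chitinase that cuts the primary septum, was the most abundant of the 3, with lowest 649, median 869 and highest 1234 RPKM against 61.3, 153, 74.2 and 124 RPKM. Its difference was 3.203 ± 0.29 (SE), or 9.21-fold (adjusted p = 0.000145). DSE1, a daughter-specific protein, differed by 3.35 ± 0.30 (SE), DSE2, a daughter-specific secreted protein, by 3.14 ± 0.43 (SE), and the glucanase-like wall protein SCW11 by 2.80 ± 0.23 (SE). PCL9, a cyclin of early G1, had lowest 68.0, median 97.6 and highest 118 RPKM against 15.5, 15.8, 12.0 and 14.5 RPKM, and its slow values were the most even of the group. AMN1, which turns off mitotic exit in daughters, differed by 2.27 ± 0.18 (SE), and ASH1, the daughter-specific repressor of HO, by 1.87 ± 0.23 (SE). The remaining members called were PRY3 (2.29), PIR1 (2.13), DSE3 (2.00) and SUN4 (2.00), while RME1 (0.61), SIC1 (0.48) and PST1 (0.14) did not pass. YLR285C-A, a small open reading frame 109 bases from CTS1 on the same strand, differed by 2.83 ± 0.16 (SE), and whether its reads belong to CTS1 was not tested. The count of 13 held when any 1 library was left out, and was 11 with the burst libraries alone and 10 with scaling to the control RNAs.

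The septum genes peaked at different stages of the cycle in the 2 cultures. In the fast culture the highest library of the 16 genes was time point 7, 8 or 9, inside the window for 9 of them, whereas in the slow culture it was time point 4, 5 or 17, outside the window for all 16. At those separate peaks the slow culture reached the higher value for 10 of the 16 genes. EGT2 peaked at 226 RPKM at fast 8 and at 303 RPKM at slow 5, and CTS1 at 1234 RPKM at fast 9 and 1133 RPKM at slow 17, which was 576 min into sampling, against 396 min for the burst at slow 12. Outside the window, where 105 of 5820 genes (1.8%) were called higher in the fast culture and 126 (2.16%) lower, 4 of the 16 were higher and 1 lower, with a median of 0.53. The signed difference, fast minus slow, in the window was then tested against that in the other libraries. This test called 21 genes larger (0.361%) and 20 smaller (0.344%) of 5820, with the sign of each difference kept. It was passed by DSE4, by 3.19 ± 0.84 (SE) (adjusted p = 0.046), and by PST1, by 1.98 ± 0.53 (SE) (adjusted p = 0.0472). Neither call is firm, since without any of 9 of the 10 window libraries in turn the adjusted p of DSE4 was 0.051 to 0.0916, and that of PST1 was 0.0606 to 0.114 without any of 8. PST1, a wall protein, had lowest 144, median 183 and highest 193 RPKM in the fast window and 80.9, 272, 109 and 258 RPKM in the slow window. Its difference was 0.14 in the window and -1.84 outside it, so its positive contrast goes with a smaller gap between the cultures in the window. For EGT2 the same contrast was 2.89 ± 0.84 (SE) (adjusted p = 0.0669) and for CTS1 2.07 ± 0.67 (SE) (adjusted p = 0.102).

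**Figure D3:**
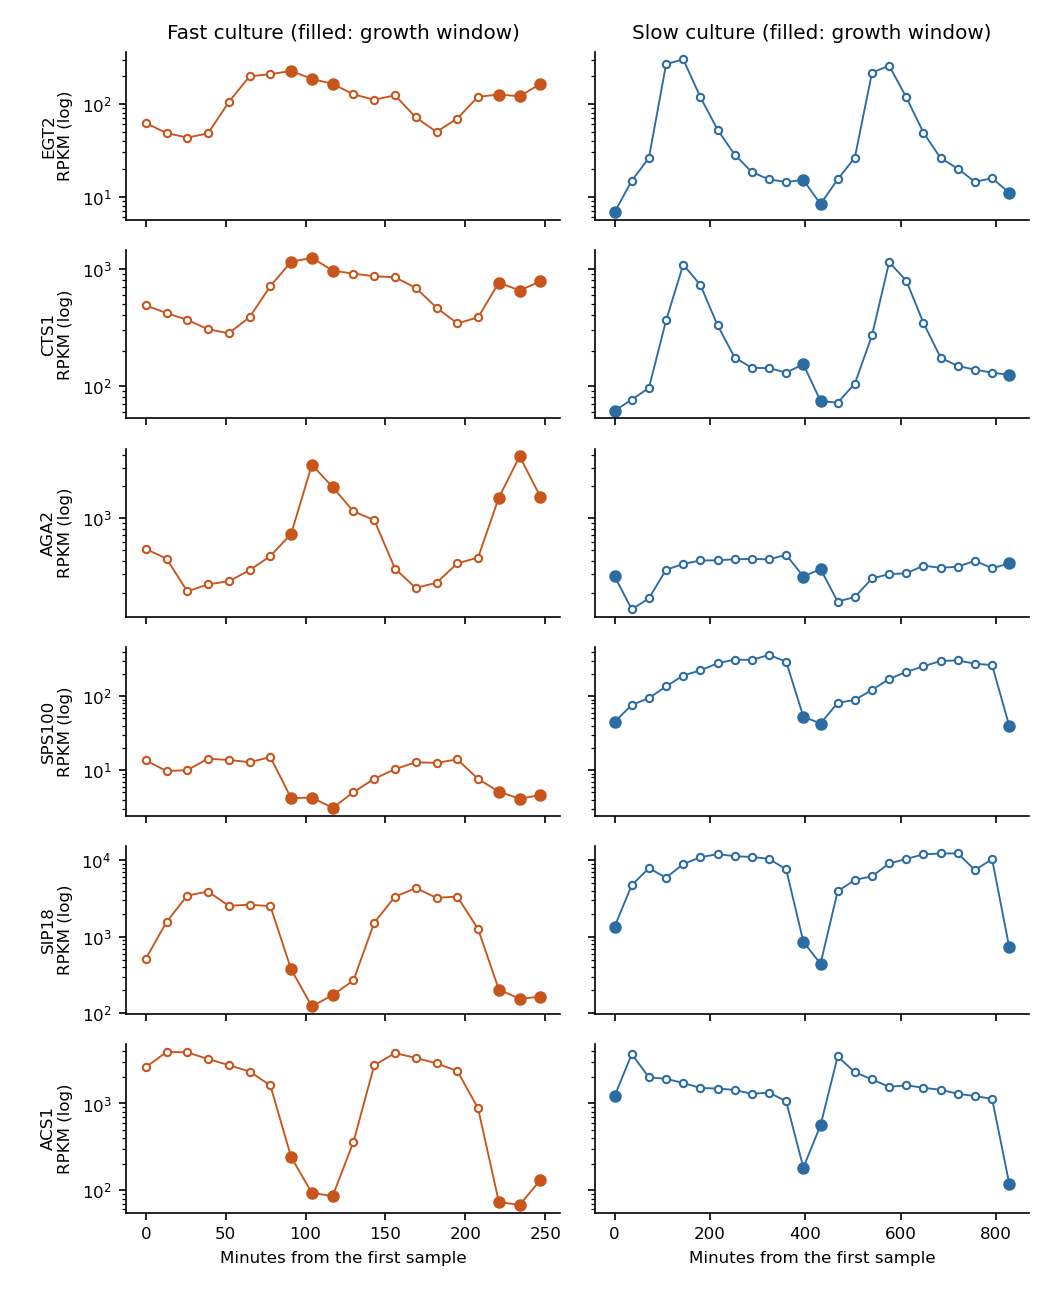
RPKM (log axis, shared within a gene) of 6 genes against minutes from the first sample in the fast (left) and slow (right) cultures, 1 point per library, with window libraries filled. EGT2 and CTS1 are high in the fast window but peak outside the slow window, AGA2 reaches 3206 and 3848 RPKM in the fast window and at most 455 RPKM in the slow culture, and SPS100, SIP18 and ACS1 have lower means in the window than outside it in both cultures, although ACS1 at slow 1, with 1213 RPKM, lies within the range of the slow libraries outside the window.

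A minority of mitotic genes were higher in the fast window. Of 38 mitotic genes, 7 were higher in the fast window and none lower at 2-fold, while the list median of 0.13 was near that of all genes and became -0.14 with scaling to the control RNAs, when that of all genes was -0.24 and the number called 3. HOF1, a cytokinesis protein, had lowest 15.6, median 23.2 and highest 34.9 RPKM in the fast window and 5.17, 2.94, 4.43 and 3.42 RPKM in the slow window. The groups were apart, by 2.34 ± 0.22 (SE) (adjusted p = 0.000189). SWI5, a transcription factor of the end of mitosis, had lowest 37.1, median 53.3 and highest 75.9 RPKM against 21.8, 12.0, 25.8 and 9.89 RPKM, a difference of 1.65 ± 0.28 (SE) (adjusted p = 0.00974). The kinase gene KIN3 (1.57), the anaphase activator CDC20 (1.504), SPO12 of mitotic exit (1.25) and the cyclin CLB2 (1.17) were also higher in the fast window. None of the 7 had its highest library inside the window. In the fast culture 5 of them peaked at time point 5, and in the slow culture 6 peaked at time points 15 and 16. Of 53 genes of S phase and DNA replication none was called (median 0.026), nor was any of 11 histone genes (median -0.39). Among 19 genes of Start, the point of commitment to division, the 3 called were PCL9, the pheromone-arrest inhibitor FAR1 and the repressor YOX1, and G1 cyclins other than PCL9 were not among them.

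All 7 a-specific mating genes, which are active in cells of mating type a, were higher in the fast window, with a median of 1.89 and no overlap between the groups in any of them. AGA2, the adhesive subunit of a-agglutinin, had lowest 715, median 1789 and highest 3848 RPKM in the fast window and 285, 283, 333 and 377 RPKM in the slow window. The 4 slow values lay close together, and the fast values were lowest at time point 8 and highest at 9 and 19, with a difference of 2.56 ± 0.42 (SE) or 5.9-fold (adjusted p = 0.00721). MFA2, a gene for the a-factor pheromone, reached the highest levels of the list, lowest 2215, median 3387 and highest 4753 RPKM against 476, 788, 539 and 777 RPKM. It differed by 2.37 ± 0.26 (SE) (adjusted p = 0.000454). STE2, the receptor for alpha-factor, had lowest 548, median 802 and highest 1303 RPKM against 119, 316, 175 and 370.4 RPKM, a difference of 1.89 ± 0.36 (SE). BAR1, a protease that degrades alpha-factor, differed by 1.91, the a-factor gene MFA1 by 1.71, the a-factor exporter STE6 by 1.66 and ASG7 by 1.40. In the fast culture the highest of all 20 libraries was time point 9 or 19 for each of the 7, and the highest fast value exceeded the highest slow value in 7 of 7, by a median ratio of 5.36. The number called was smaller under several settings. It was 4 without fast 9, 10, 18, 19 or 20 or slow 1, and 3 without slow 13. With the burst libraries alone it was 1 (median 1.13), and with scaling to the control RNAs it was 2 (median 1.61). With the libraries after the burst alone it was 7 (median 2.43).

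Some genes of the pheromone response that are shared by a and alpha cells were higher too. Of 17 haploid-specific genes measured, 5 were higher in the fast window and none lower, with a median of 0.81. AGA1, the anchor subunit of agglutinin, had lowest 176, median 356 and highest 963 RPKM in the fast window and 62.6, 90.2, 83.0 and 91.1 RPKM in the slow window, and the difference was 2.24 ± 0.46 (SE) (adjusted p = 0.0211). FAR1 had lowest 53.2, median 89.6 and highest 164 RPKM against 9.20, 31.7, 16.3 and 34.5 RPKM, a difference of 2.09 ± 0.41 (SE) (adjusted p = 0.0185). FUS1, a cell fusion gene, differed by 2.00, SST2, which dampens pheromone signalling, by 1.68, and AMN1 is also counted among the septum genes, with its highest libraries at fast 8 and slow 17. The call of AGA1 was lost without fast 18 or slow 1, 13 or 24 (adjusted p = 0.0532 to 0.0616), and that of FAR1 without slow 13 (adjusted p = 0.0627). Of 4 alpha-specific genes only MF(ALPHA)1 was called, and its difference was the largest in size of the 153 genes called, with lowest 627, median 875 and highest 1108 RPKM against 18.1, 85.4, 30.9 and 88.3 RPKM. That is 4.19 ± 0.42 (SE), or 18.2-fold (adjusted p = 0.000303), with every fast library above every slow one. The other alpha-factor gene, MF(ALPHA)2, stayed at a mean of 1.47 and 1.09 RPKM, and the a-factor receptor STE3 at 16.7 and 15.2 RPKM. The labels give neither ploidy nor mating type. In a diploid of both mating types a-specific and haploid-specific genes are normally kept low, so the levels above do not match that state, and the reason was not tested. The a1 gene, counted on its silent copy HMRA1, was at 125 to 189 RPKM in the fast window and 132 to 189.9 RPKM in the slow window. MATALPHA1 and MATALPHA2 were listed at 0 in all 10 libraries, but share sequence with second copies and are uncertain.

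**Figure D4:**
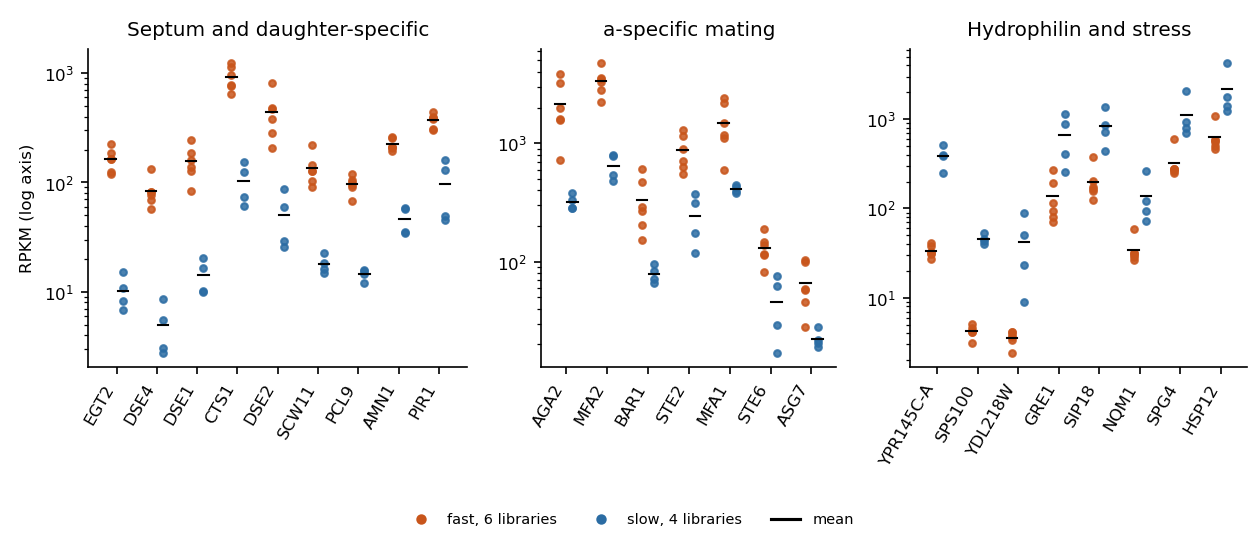
RPKM (log axis) of septum genes, a-specific mating genes and stress genes in each of the 6 fast (orange) and 4 slow (blue) window libraries, with the mean as a bar. The 2 sets of points are apart for every gene shown except GRE1, whose fast maximum of 269 RPKM passes the slow minimum of 259 RPKM.

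A part of the genes of stress protection was lower in the fast window. Of 28 hydrophilin and general stress genes, 11 were lower, none higher and 17 not called, 13 had non-overlapping groups, and the median was -1.21. The list was chosen with earlier results of these data known. It includes YPR145C-A and YDL218W, which have no described role and are both among the 11, so the count is in part fixed by that choice. The promoters of SPS100 and HSP12 are given because each holds 2 copies of the stress element AGGGG on the strand opposite to the printed one, so that its reverse complement stands in capitals, from the same assembly and over the same span as those above.
SPS100 (chrVIII:379150-379449, minus strand): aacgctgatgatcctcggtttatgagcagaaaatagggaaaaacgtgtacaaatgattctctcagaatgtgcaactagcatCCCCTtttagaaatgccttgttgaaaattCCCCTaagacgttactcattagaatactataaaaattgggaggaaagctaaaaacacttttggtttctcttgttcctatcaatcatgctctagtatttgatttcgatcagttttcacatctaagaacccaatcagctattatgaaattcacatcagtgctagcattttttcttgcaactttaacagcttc
HSP12 (chrVI:107006-107305, plus strand): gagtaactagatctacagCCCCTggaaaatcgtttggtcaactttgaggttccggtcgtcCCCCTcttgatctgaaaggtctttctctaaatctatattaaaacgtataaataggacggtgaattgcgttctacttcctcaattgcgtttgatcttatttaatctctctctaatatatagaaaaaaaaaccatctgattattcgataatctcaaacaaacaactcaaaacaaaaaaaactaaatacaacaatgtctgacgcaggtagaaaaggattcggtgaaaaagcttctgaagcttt
The matches begin 169 and 140 bases before the start codon in SPS100 and 232 and 190 bases before it in HSP12. AGGGG was present on either strand in 22.0% of all promoters, in 23 of 72 promoters of genes called lower (31.9%), in 5 of the 11 stress genes called lower (45.5%) and in 11 of 71 promoters of genes called higher (15.5%). At least 2 copies were present in 3.0% of all promoters and in 3 of those 11 (27.3%). YPR145C-A, which had the largest difference of the list, and YDL218W had no match in this span.

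SPS100, known in spore wall formation, had lowest 3.09, median 4.22 and highest 5.11 RPKM in the fast window and 45.0, 52.9, 42.7 and 39.6 RPKM at slow 1, 12, 13 and 24. Both groups were narrow and far apart, with a difference of -3.14 ± 0.13 (SE), so that the slow level was 8.83-fold the fast level (adjusted p = 1.75e-06). YPR145C-A, a small open reading frame without a described role, had lowest 27.3, median 32.2 and highest 40.7 RPKM against 252, 399, 384 and 518 RPKM, a difference of -3.46 ± 0.20 (SE) (adjusted p = 1.07e-05). Outside the window it was at a mean of 32.9 RPKM in the fast and 432 RPKM in the slow culture, almost as inside it. YDL218W, also without a described role, had lowest 2.42, median 3.73 and highest 4.18 RPKM against 23.2, 87.8, 8.98 and 50.2 RPKM, and its slow values spread widely, with both bursts above the other libraries. SIP18, a hydrophilin that protects dry cells, had lowest 123, median 169 and highest 375 RPKM against 1349.8, 859.6, 443 and 727 RPKM, a difference of -2.06 ± 0.36 (SE) (adjusted p = 0.01). GRE1, its paralog, differed by -2.23 ± 0.50 (SE) with groups that overlapped. HSP12, a small heat shock protein that stabilises membranes, had lowest 465, median 570.3 and highest 1078 RPKM against 4242, 1402, 1749 and 1225 RPKM. The fast maximum was at time point 8, and the difference was -1.65 ± 0.37 (SE) (adjusted p = 0.0353). Its call was lost without fast 9, 10, 18, 19 or 20 or slow 13 (adjusted p = 0.0744 to 0.0859). NQM1, a transaldolase (-1.84), SPG4 (-1.72) and SPG1 (-1.48), both needed in stationary phase, the aldehyde dehydrogenase ALD3 (-1.70) and the cytosolic catalase CTT1 (-1.54) were the other members called.

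The number of stress genes called was 7 without fast 9, 18, 19 or 20, 6 with the burst libraries alone, and 21 with the libraries after the burst alone. The median level of the list was low in the window of both cultures relative to the rest of the cycle. It was between 82.7 and 123 RPKM in the fast window, and in the slow window it was 114 and 146 RPKM at the bursts but 378 and 315 RPKM at time points 1 and 13. Outside the window 10 of the 28 were also lower in the fast culture, with a median of -0.80, and none of the 28 passed the test of window against rest. SIP18, for example, averaged 2449 RPKM in the fast and 8965 RPKM in the slow culture outside the window. Of 32 heat shock genes tested, 3 were lower, namely HSP12, the membrane protein HSP30 (-1.44) and the inducible Hsp70 gene SSA3, with lowest 54.9, median 72.6 and highest 175 RPKM against 365, 291, 207 and 230.1 RPKM. The median of that list was -0.14. Of 27 genes of oxidant defence 2 were lower and 1 higher (YHB1), with a median of -0.099. The 2 lower genes, CTT1 and CTA1, are also counted in the stress and peroxisome lists. With median-of-ratios scaling none of the 27 was called lower.

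Fat breakdown in the peroxisome was represented by 4 lower genes and 1 higher gene of 47. POT1, the thiolase that ends each round of beta-oxidation, had lowest 15.3, median 19.5 and highest 67.0 RPKM against 215, 107, 77.4 and 69.1 RPKM, a difference of -2.08 ± 0.43 (SE) (adjusted p = 0.0242). CTA1, the peroxisomal catalase, had lowest 35.4, median 41.2 and highest 165 RPKM against 494, 203, 153 and 144 RPKM, and its groups overlapped because of fast 8. The difference was -2.04 ± 0.48 (SE) (adjusted p = 0.0434), and the call was lost without any of 9 of the 10 libraries (adjusted p = 0.0624 to 0.0985). POT1 was likewise lost without any of 7 libraries (adjusted p = 0.0528 to 0.0608). FAT3 (-1.998), of fatty acid uptake, and the import factor PEX18 (-1.93) were also lower, and FAA3, a fatty acid activating enzyme, was higher (1.57).

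Iron genes went in both directions. FET3, the oxidase of high-affinity iron uptake, had lowest 29.4, median 57.9 and highest 65.4 RPKM in the fast window and 6.57, 7.01, 9.50 and 6.31 RPKM in the slow window. The slow values were even and below all fast ones, by 2.66 ± 0.22 (SE) or 6.34-fold (adjusted p = 8.28e-05). TIS11, an RNA-binding protein that degrades messages of iron-using proteins when iron is short, had lowest 2.27, median 3.51 and highest 3.84 RPKM against 16.6, 16.5, 22.9 and 20.2 RPKM, a difference of -2.24 ± 0.15 (SE) (adjusted p = 2.46e-05). The siderophore transporter ARN1 was higher (1.28), and the other 25 of 28 iron genes tested were not called. Outside the window the difference was 2.47 for FET3 and -2.38 for TIS11, near the values inside it.

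Among transporters and wall genes, PIR1 and PIR3, paralogous wall proteins that lie 1581 bases apart on chromosome XI, differed in opposite directions. PIR1 had lowest 302, median 385 and highest 437 RPKM in the fast window and 45.7, 161, 49.3 and 129 RPKM in the slow window, and PIR3 had lowest 5.35, median 9.39 and highest 11.6 RPKM against 19.0, 71.0, 21.5 and 50.7 RPKM. The differences were 2.13 ± 0.35 (SE) and -1.90 ± 0.37 (SE), and in the slow culture both were higher at the bursts than at time points 1 and 13. As near relatives they may share reads. The call of PIR3 was lost without slow 24 (adjusted p = 0.0624). TPO2, a polyamine exporter, had lowest 3.10, median 3.28 and highest 4.67 RPKM against 8.29, 77.2, 20.8 and 60.4 RPKM, low in every fast library and spread in the slow ones, with a difference of -2.81 ± 0.51 (SE). SHH3, a mitochondrial homolog of a succinate dehydrogenase subunit, differed by -2.60 ± 0.28 (SE), YCR007C, a membrane protein of the DUP240 family, by -2.58 ± 0.17 (SE), BOP2 by -2.30 ± 0.34 (SE), and the cell surface protease YPS1 by -1.41 ± 0.20 (SE). YBR116C, at -2.10, overlaps the transketolase gene TKL2 by 335 bases on the same strand and is uncertain, and its call was lost without fast 18 or 19 or slow 13 (adjusted p = 0.0527 to 0.0621).

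Nutrient genes gave few calls. The sulfate permease SUL1 had lowest 521, median 643 and highest 821 RPKM against 289, 228, 280.2 and 209 RPKM, a difference of 1.37 ± 0.17 (SE) (adjusted p = 0.00126), and was the single call among 38 genes of sulfur amino acid metabolism. GDH3, a glutamate dehydrogenase, was higher by 1.05 ± 0.17 (SE), which fell to 0.95 without slow 13. The amino acid permeases BAP3 (-1.47) and TAT1 (-1.39) were lower and the oligopeptide transporter OPT2 (1.11) was higher, all 3 under 20 RPKM. PHM8, a phosphatase of phosphate starvation, was lower (-1.23). YHB1, the flavohemoglobin that destroys nitric oxide, had lowest 1650.5, median 2382 and highest 2967 RPKM against 575, 503, 510.0 and 694 RPKM, a difference of 1.99 ± 0.21 (SE) (adjusted p = 0.000391), and SPS4, a sporulation gene, was higher by 2.17 ± 0.24 (SE) at levels under 32 RPKM.

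No member was called among 44 genes of oxidative phosphorylation (median 0.67), 14 of the tricarboxylic acid cycle (0.39), 21 of trehalose and glycogen (-0.14), 34 of the proteasome (0.18), 32 of autophagy (-0.17), 20 cytosolic aminoacyl-tRNA synthetases (0.15) and 25 of ergosterol synthesis (0.11). With scaling to the control RNAs, which moved the median of all genes to -0.24, the medians of the proteasome, synthetase and ergosterol lists were -0.112, -0.133 and -0.175, negative but above that of all genes. The median of oxidative phosphorylation stood above that of all genes at the burst and after it, at 0.52 and 0.54, but no member reached both thresholds over all 10 libraries.

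The differences in the window were also set against those outside it. Of the 78 higher genes, 76 were also tested outside the window, and 32 of them were called higher there too. Of the 75 lower genes, 50 were also lower outside. Against the rest, 7 of the higher genes had a larger signed difference in the window. For 3 of the lower genes the signed difference was smaller, which means more negative in the window than outside it. AGA2 was among the 7, by 2.27 ± 0.45 (SE) (adjusted p = 0.00549), with means of 439 RPKM in the fast and 326 RPKM in the slow culture outside the window. PRM6, a pheromone-regulated membrane protein, followed by 2.27 ± 0.39 (SE) (adjusted p = 0.00166), with lowest 3.87, median 8.51 and highest 14.6 RPKM against 1.02, 0.912, 0.984 and 0.505 RPKM in the window. YKL096C-B, a small open reading frame at under 8 RPKM in the window, gave 2.15 ± 0.44 (SE). It lies 30 bases from the highly expressed CWP2 on the other strand. PRM6 and YKL096C-B averaged 0.855 and 0.623 RPKM in the slow window. Both passed the filter of the window test only through the fast libraries and could hardly have been called lower in it. Of 27 genes of glycolysis and fermentation, 4 were larger, namely CDC19 (1.65 ± 0.40 (SE)), ENO2 (1.49 ± 0.34 (SE)), GPM1 (1.47 ± 0.37 (SE)) and PGI1 (1.03 ± 0.26 (SE)). With scaling to the control RNAs fewer than 4 genes of any kind were larger, so not all of these held. The window difference of this list had a median of 0.58 at the burst and -0.37 after it, so the contrast joins stages of opposite sign. For CDC19, pyruvate kinase, the 6 fast values from 1486 to 2322 RPKM lay above the 4 slow values from 794 to 1417 RPKM, whereas outside the window the mean was 1472 RPKM in the fast and 2821 RPKM in the slow culture.

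Acetate genes made up 8 of the 20 genes with a smaller signed difference in the window than outside it, out of 30 on the list. ADY2, an acetate transporter, had lowest 28.9, median 45.9 and highest 159.6 RPKM in the fast window and 812, 105, 112 and 68.4 RPKM in the slow window, and outside it averaged 1604 RPKM in the fast and 553 RPKM in the slow culture. The window difference alone, -1.59 ± 0.68 (SE), did not pass (adjusted p = 0.302), but against the rest it was smaller by -3.05 ± 0.66 (SE) (adjusted p = 0.0129). ACS1, which makes acetyl-CoA from acetate, had lowest 67.6, median 89.3 and highest 241 RPKM against 1213, 182, 559.8 and 119 RPKM, with the slow values high at time points 1 and 13 and low at both bursts. The contrast with the rest was -2.21 ± 0.57 (SE) (adjusted p = 0.0382). CAT2, the carnitine acetyltransferase, had lowest 25.2, median 42.8 and highest 77.1 RPKM against 712, 57.7, 311 and 41.6 RPKM, and its contrast was -2.49 ± 0.60 (SE) (adjusted p = 0.0243). YAT2, ALD6, ACS2, DLD1 and the succinate-fumarate carrier SFC1 were the others. CIT3 and ICL2, mitochondrial enzymes of the methylcitrate pathway, gave -2.34 ± 0.57 (SE) and -2.23 ± 0.48 (SE). Among these, the contrast missed the threshold without slow 1 for ADY2 (adjusted p = 0.0517), without fast 18 or 19 or slow 1 or 13 for CAT2 (0.0591 to 0.106), without fast 9, 10, 18 or 19 or slow 1 or 13 for ACS1 (0.0579 to 0.134), and without fast 9, 10 or 19 or slow 1 for CIT3 (0.054 to 0.0891). The count of 8 rested on the libraries after the burst and was 0 with a window of the burst libraries alone, 1 without slow 1, 2 without slow 13, 3 without fast 18 or 19, 4 without fast 9 and 13 without slow 24. The total of 20 genes was 9 without slow 13, 10 without fast 19, 12 without fast 9 or 18, 40 without slow 12 and 43 without slow 24.

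**Figure D5:**
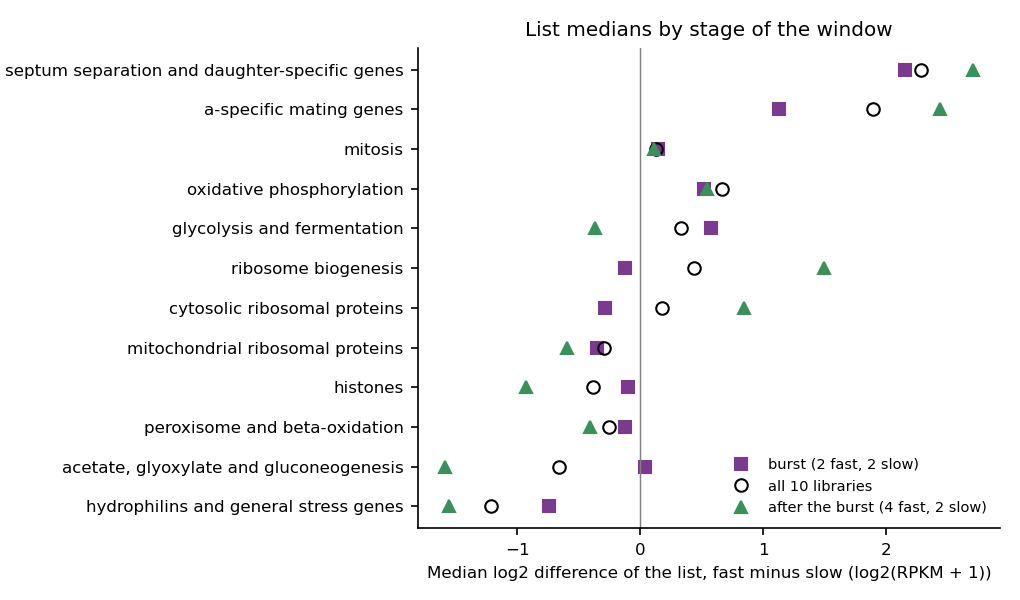
Median log2 difference, fast minus slow, of 12 gene lists with the burst libraries alone (squares), all 10 window libraries (circles) and the libraries after the burst alone (triangles). Septum genes stay between 2.15 and 2.71, whereas ribosome biogenesis goes from -0.12 to 1.495 and acetate genes from 0.035 to -1.59.

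The medians of the lists were also taken for each stage. Septum genes had a median of 2.15 at the burst and 2.71 after it. The acetate list had a median of 0.035 at the burst with 2 of 30 genes lower, and -1.59 after it with 19 of 30 lower. Stress genes went from -0.74 to -1.55. Glycolysis and fermentation turned, from 0.58 at the burst, with 7 of 27 genes higher, to -0.37 after it, with 3 of 27 lower. The difference between the stages was not itself tested. Each stage has 2 slow libraries, and the sampling step was 13 min in the fast and 36 min in the slow culture, so how far past the burst the libraries of the second stage lie cannot be matched between the cultures.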

How the data were processed

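The authors deposited 1 table of RPKM values per gene and library, counted on the sense strand and scaled to a fixed total with HOMER, per the file headers. FastQC 0.10.1, TopHat2 2.0.10 and HOMER are named in the submitters' processing notes, with the sacCer3 build. The 92 control RNAs were left out of tests, and 6692 yeast rows remained. RPKM carry no counts. Whole reads were recovered from the RPKM steps within 0.1 read to estimate depth only. Values were tested as log2(RPKM + 1) with limma 3.58.1 in R 4.3.3 (intensity trend, Benjamini-Hochberg adjustment over all genes averaging 1 RPKM or more), at an adjusted p under 0.05 and at least 2-fold. The window fit used 10 libraries, and the contrast of window against rest all 44 in 4 groups. On simulated data the window fit recovered 76 of 100 changes of 1.5 and 91 of 100 of 2 on the log2 scale, with 10 false calls among 5602 genes. The simulated noise was independent between genes and libraries. The real libraries are serial samples of 1 culture per condition and share stages, so these rates need not hold for them. No depth-based interval can be given for RPKM, and precision is the spread between libraries.

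Members and gene lists were chosen with earlier results of these data known, so no list is independent support. Named genes were the 10 largest non-overlapping changes each way, the top 2 called of each list, the 5 largest contrasts of window against rest each way, and RPL17B, NSR1, MRPL10 and ACT1; other members of a list are named with their list. Promoters were read from RefSeq R64, whose gene positions equal those of the file for 99.87% of 6008 rows. The random extraction groups of the protocol are not given per library. Alternatives were other pseudocounts (0.1, 5), filters (none, 10 RPKM), scalings, a stage term, each stage alone and each window library left out.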

Additional observations from a re-analysis of the deposited data

Results flagged for a closer look

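Among 106 groups of the 53 named genes, 12 had a highest library far from the others by Dixon's criterion, where chance gives about 1 in 20. Fast 8 was that library for DSE4 (134 RPKM), TPO2 (4.67), SHH3 (20.0), POT1 (67.0), CTA1 (165), HSP12 (1078), ADY2 (159.6), CIT3 (142) and ACS1 (241). Slow 1 was that library for CTA1 (494 RPKM), ADY2 (812) and CIT3 (334). With 6 and 4 libraries that span different stages, what these gaps come from was not tested. The rate of 1 in 20 holds for independent groups without such stages. These genes share the same libraries, so the 12 cannot be read as an excess over it.

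By limma's contrast the signed difference, fast minus slow, was larger inside the window than outside it for 21 genes and smaller for 20. The 5 genes in each direction that were named for the size of this contrast are given as a description. It was larger for DSE4 (3.19), PRM6 (2.27), AGA2 (2.27), YKL096C-B (2.15) and PST1 (1.98). It was smaller for ADY2 (-3.05), CAT2 (-2.49), CIT3 (-2.34), ICL2 (-2.23) and ACS1 (-2.21). The sign matters for the reading. The differences inside and outside the window were 0.14 and -1.84 for PST1, and -1.59 and 1.46 for ADY2.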

How the results depend on the processing

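No paired analysis was possible because the windows of the 2 cultures share no time point number, and a number does not mark the same stage in both. Of 60 results on named genes, 573 values under settings other than leaving out a library gave 518 with the same direction and side of the threshold, 43 past it no longer, 7 newly past it and 5 of opposite sign. Leaving out each library gave 527, 71, 0 and 2 of 600. Signs turned for PST1 (-0.15 with control RNA scaling, -0.66 at the burst alone, and -0.182 to 0.397 with a window library left out), for ADY2 (0.043) and CIT3 (0.41) at the burst alone, and for ACT1 (-0.077) with control RNA scaling.

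Counts called higher were 30 with control RNA scaling and 428 after the burst alone, and counts lower were 135 with a stage term and 230 after the burst. The 428 include growth genes, whose levels chose the stages. With a window library left out the counts higher and lower ranged from 57 to 75 and from 52 to 76. Contrasts larger in the window were 2 with control RNA scaling, and smaller ones 119 with it, 38 with median-of-ratios scaling, 11 with the burst and 9 to 43 with a library left out (larger, 15 to 29). The a-specific genes gave 2 with control RNA scaling, 1 at the burst and 3 to 6 with a library left out. Mitosis gave 3 with control RNA scaling and 4 after the burst (6 to 7). Stress genes gave 18 with a stage term, 6 at the burst, 21 after it and 7 to 12 with a library left out, and acetate genes 14 with control RNA scaling, 0 at the burst and 1 to 13. Septum genes gave 10 to 13 over these settings. The causes were not tested. Each stage had 2 slow libraries, each condition 1 culture, and RPKM cannot show a change of total RNA.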

Other observations

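Transcripts of the mitochondrial genome, a list put together after values were seen, were higher in the fast window for 6 of 11 rows tested and lower for none, with a median of 1.25. ATP6, a subunit of the ATP synthase, averaged 6.16 RPKM in the fast and 1.67 RPKM in the slow window, a difference of 1.35 ± 0.32 (SE, adjusted p = 0.0427). OLI1, which encodes the rotor ring subunit of that enzyme, averaged 30.9 and 6.03 RPKM, a difference of 2.04 ± 0.45 (adjusted p = 0.0334), and COX3 of cytochrome oxidase averaged 3.69 and 0.84 RPKM, a difference of 1.32 ± 0.29 (adjusted p = 0.034). With a slow mean under 1 RPKM, COX3 passed the filter only through the fast libraries and could hardly have been called lower. The others called were AI2, AI3 and AI4, which overlap each other and COX1 on the same strand and are not separate observations. COX1 (1.13, adjusted p = 0.0709) and COX2 (0.99, adjusted p = 0.262) did not pass. These libraries were selected for poly(A), and how that acts on mitochondrial transcripts was not tested.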
